A study of Mus musculus with 9 samples.

Results

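The annexins and ferlins of membrane repair were followed as 10 genes, the 8 annexins *Anxa1*, *Anxa2*, *Anxa3*, *Anxa4*, *Anxa5*, *Anxa6*, *Anxa7* and *Anxa11* and the 2 ferlins *Dysf* and *Myof*. They were taken by symbol, 10 of 55471 gene IDs in the count table, and all 10 passed the filter on low counts. RNA of the gastrocnemius, a calf muscle, was sequenced from 5 homozygous *Shank3Δ11(-/-)* mice (KO1 to KO5) and 4 wild-type *Shank3(+/+)* mice (WT1 to WT4), as 1 library per mouse. All 9 were pups at postnatal day 0 to 1 and are labelled C57BL/6, and the study's methods derive the mutant pups from matings of heterozygous C57BL/6JRj mice. The mutation is constitutive, so it is carried by every cell type of the muscle and by the motor neurons that reach it. The question of the comparison is how the newborn muscle transcriptome differs when the scaffold protein SHANK3 is disrupted. KO2 and KO4 were left out of the transcriptome comparison in the study, and each genotype comparison was therefore computed with 7 mice, in which KO1, KO3 and KO5 were set against the 4 wild-type mice, and again with all 9.

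Annexins are soluble proteins that bind phospholipid membranes when calcium rises. When a muscle fibre is torn, calcium enters through the wound, and annexins gather at the edge of the hole within a repair cap. Ferlins are large proteins anchored in membranes by their tail and carry a row of C2 domains, which bind lipids and calcium. Dysferlin, the product of *Dysf*, is needed for resealing of the muscle fibre membrane, and its loss causes limb-girdle muscular dystrophy and Miyoshi myopathy in people. Myoferlin, the product of *Myof*, acts in the fusion of myoblasts. Annexin genes are also active in fibroblasts, endothelium and blood-derived cells, so in RNA of a whole muscle a difference in the number of such cells and a difference in RNA per cell cannot be told apart.

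The start regions of *Anxa2*, *Anxa5* and *Dysf* are shown because *Anxa2* and *Anxa5* varied together over the mice and *Dysf* against them, as described with the correlations. RefSeq on GRCm38.p6 supplied start regions for 8 of the 10 genes, 11 regions in all. The 250 bases before each start are written 5′ to 3′ on the strand of the gene, and capitals mark every match, on either strand, to CANNTG (the E-box bound by myogenic factors), GGGCGG (the GC box), TATAAA (the TATA box) or TGANTCA (the AP-1 motif). The regions lie at chr9:69453433-69453682 on the plus strand for *Anxa2*, chr3:36475888-36476137 on the minus strand for *Anxa5*, and chr6:84008348-84008597 and chr6:84019136-84019385 on the plus strand for the first and the second start of *Dysf*.
Anxa2: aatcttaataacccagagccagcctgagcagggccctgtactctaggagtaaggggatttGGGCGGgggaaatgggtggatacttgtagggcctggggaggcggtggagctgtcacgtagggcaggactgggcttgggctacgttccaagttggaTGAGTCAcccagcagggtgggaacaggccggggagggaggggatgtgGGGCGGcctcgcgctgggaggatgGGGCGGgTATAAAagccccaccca
Anxa5: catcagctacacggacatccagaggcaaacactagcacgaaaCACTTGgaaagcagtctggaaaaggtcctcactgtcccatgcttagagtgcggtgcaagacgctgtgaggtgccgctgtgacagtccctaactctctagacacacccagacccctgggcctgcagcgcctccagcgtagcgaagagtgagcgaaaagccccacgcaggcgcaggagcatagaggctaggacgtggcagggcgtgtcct
Dysf first start: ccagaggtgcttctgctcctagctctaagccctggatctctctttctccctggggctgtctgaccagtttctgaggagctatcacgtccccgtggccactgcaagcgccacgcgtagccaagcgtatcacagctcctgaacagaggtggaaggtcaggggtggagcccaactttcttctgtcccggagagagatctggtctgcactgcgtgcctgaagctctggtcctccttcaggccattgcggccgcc
Dysf second start: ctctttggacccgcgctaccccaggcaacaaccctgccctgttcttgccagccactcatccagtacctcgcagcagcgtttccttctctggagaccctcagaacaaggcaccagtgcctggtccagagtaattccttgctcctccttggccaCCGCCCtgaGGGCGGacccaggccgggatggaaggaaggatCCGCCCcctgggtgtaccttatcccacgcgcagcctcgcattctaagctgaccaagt

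The *Anxa2* region held 3 GC boxes, 1 TATA box and 1 AP-1 motif. That of *Anxa5* held a single match, an E-box 208 bases before the start. None of the 4 motifs occurred before the first start of *Dysf*, and before the second start there were 3 GC boxes. Over the 32851 start regions of the same length, 66.2% held CANNTG, 32.7% GGGCGG, 12.4% TATAAA and 6.75% TGANTCA. The start regions of *Anxa2* and *Anxa5* had no motif of these in common. A match describes letters only and does not show binding.

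Measured per exon length, *Anxa6*, *Anxa5* and *Anxa2* were the most abundant members. Annexin A6 holds a doubled annexin core, annexin A5 forms lattices on exposed phosphatidylserine, and annexin A2 pairs with the S100 protein S100a10. *Anxa6* stood at 148 ± 12.5 RPKM, the reads per kilobase of exon scaled to library depth (SD, n = 9 mice), *Anxa5* at 109.7 ± 13.9 and *Anxa2* at 97.7 ± 14.7. Each of these 3 genes lay above the next in the order in 9 of 9 mice.

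*Anxa1*, whose protein also restrains leukocyte entry, followed at 23.6 ± 6.01 on this scale. *Anxa11* stood at 15.3 ± 1.90, *Dysf* at 13.2 ± 3.07 and *Anxa7* at 12.1 ± 1.03. *Dysf* lay above *Anxa7* in only 6 of 9 mice, and those neighbours do not differ beyond their spread. *Anxa3* stood at 9.76 ± 1.55, *Anxa4* at 7.81 ± 0.929 and *Myof* at 2.42 ± 0.382, and *Myof* was last in every mouse. With the length of the transcript of longest coding sequence in place of all exons, *Anxa2* came first at 252 and *Anxa6* second at 174, and *Dysf* moved from the sixth place to the ninth at 16.5.

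**Figure D1:**
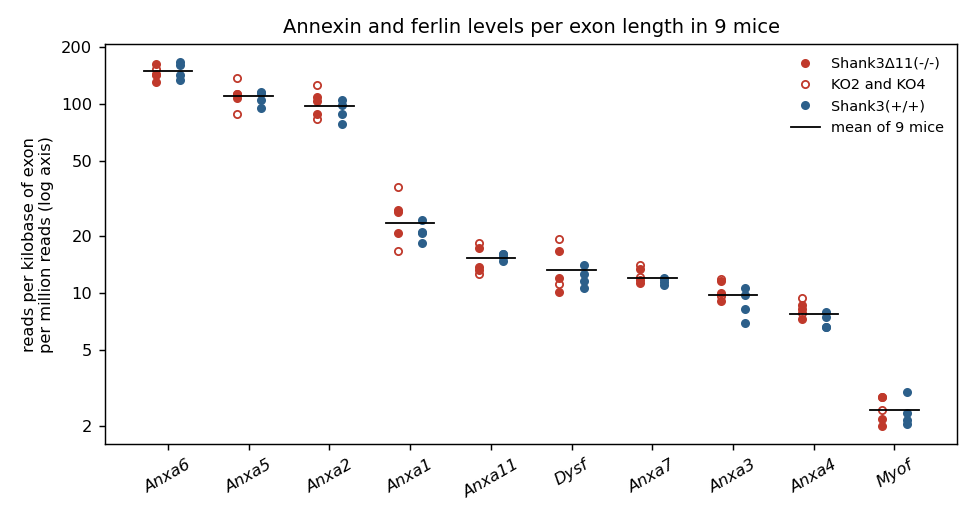
Level of each gene in RPKM, on a log axis, with 1 point per mouse (red for *Shank3Δ11(-/-)*, open red for KO2 and KO4, blue for *Shank3(+/+)*) and a bar at the mean of 9 mice. The means run from 148 for *Anxa6* to 2.42 for *Myof*, and the genotypes overlap for every gene.

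All values from here on are CPM, counts scaled to library depth, which compare mice for 1 gene and not genes with each other. No member passed the test between the genotypes. In edgeR's quasi-likelihood test 0 of 10 had p below 0.05 with 7 mice and 0 of 10 with 9, where 2.08% and 2.03% of all genes tested did. Of the 21809 and 21735 genes that passed the filter, none reached p below 0.05 with an adjusted p below 25% in these edgeR fits (0% of genes called), while DESeq2 called 6 genes with 7 mice and 7 with 9, none of them a member, and the adjusted p of each member was 1.00. On the log2 scale the members' median fold change was 0.06 with 7 mice, 7 higher and 3 lower, beside -0.01 over all genes, of which 47.8% were higher. With 9 mice it was 0.13, 8 higher and 2 lower, beside 0.00 over all genes, of which 50.5% were higher. *Shank3* itself stood at 25.7 to 35.0 CPM in the 5 *Shank3Δ11(-/-)* mice and 32.4 to 38.5 in the 4 *Shank3(+/+)* mice. A count over the whole gene does not check the deletion of a single exon.

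Among the calcium-dependent repair cap annexins, *Anxa1* (chr19:20373428-20390944) varied most. It was measured at 79.6, 48.4, 60.2, 106 and 78.0 CPM in KO1 to KO5 and at 71.2, 53.5, 60.7 and 61.3 CPM in WT1 to WT4. The lowest and the highest mouse were both *Shank3Δ11(-/-)*, KO2 and KO4, and the *Shank3(+/+)* mice lay between them. Its log2 fold change was 0.23 ± 0.13 (SE) with 7 mice, with a 95% interval from -0.06 to 0.52 (edgeR p = 0.113, exact permutation p = 0.200). With all 9 mice it was 0.27 ± 0.19 (edgeR p = 0.171, exact permutation p = 0.357). Without KO3, the comparison of 7 mice gave 0.35 with an unadjusted p of 0.0245 in edgeR, while without KO1 it gave 0.16. With 9 mice it was 0.39 without KO2, with an unadjusted p of 0.0274, and 0.10 without KO4, with a p of 0.503.

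*Anxa2* (chr9:69453620-69491795) was measured at 328, 309.9, 404, 469 and 387 CPM in KO1 to KO5 and at 330.4, 293, 367 and 390.3 CPM in WT1 to WT4. KO4 was the highest mouse and WT2 the lowest, and the other values of both genotypes were interleaved. The log2 fold change was 0.10 ± 0.13 with 7 mice, with an interval from -0.18 to 0.39 (edgeR p = 0.442, exact permutation p = 0.514). *Anxa5* (chr3:36448923-36475894) was measured at 191, 157, 201, 244 and 200.1 CPM in KO1 to KO5 and at 185, 168, 202 and 206 CPM in WT1 to WT4. Its highest mouse was KO4 and its lowest KO2, while the other 7 lay between 168 and 206. The log2 fold change of *Anxa5* was 0.04 ± 0.11, with an interval from -0.19 to 0.28 (edgeR p = 0.688, exact permutation p = 0.657).

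*Anxa6* (chr11:54979108-55033445) was the steadiest of the abundant annexins, with 382 to 472 CPM in the 5 *Shank3Δ11(-/-)* mice and 389.8 to 485 CPM in the 4 *Shank3(+/+)* mice. The groups covered nearly the same range, and the log2 fold change was -0.06 ± 0.12 with 7 mice (edgeR p = 0.636, exact permutation p = 0.657). The SD of its log2 CPM over the 9 mice was 0.12, against a median of 0.17 over the 10872 genes with a mean of at least 10 CPM. *Anxa7* (chr14:20455260-20480133), a fusogenic annexin of secretory vesicles, had the same SD of 0.12. It was measured at 67.6 to 84.6 CPM in the *Shank3Δ11(-/-)* mice and 66.1 to 72.1 CPM in the *Shank3(+/+)* mice, with a log2 fold change of 0.06 ± 0.10 (edgeR p = 0.576, exact permutation p = 0.629).

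*Anxa3* and *Anxa4* were the members in which all 5 *Shank3Δ11(-/-)* mice lay above the *Shank3(+/+)* median, without passing the test. *Anxa4* (chr6:86736840-86793584), an annexin best known from epithelia, was measured at 38.4, 36.6, 40.1, 44.1 and 34.1 CPM in KO1 to KO5 and at 30.7, 30.7, 36.9 and 34.9 CPM in WT1 to WT4. KO5 lay below WT3 and WT4, so the groups overlapped. The log2 fold change was 0.16 ± 0.12 with 7 mice (edgeR p = 0.183, exact permutation p = 0.200) and 0.22 ± 0.10 with 9 (edgeR p = 0.0538, exact permutation p = 0.0714). In edgeR with 9 mice, a replicate block gave *Anxa4* an unadjusted p of 0.0170. Leaving out KO5 gave 0.0298 and leaving out WT3 0.0305 in the same test.

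*Anxa3* (chr5:96793339-96845966), prominent in neutrophils and endothelium, was measured at 36.4, 35.4, 33.0, 43.2 and 42.2 CPM in KO1 to KO5 and at 39.0, 35.5, 30.1 and 25.3 CPM in WT1 to WT4. WT4 was the lowest mouse and KO4 the highest, and WT1 lay above 3 of the 5 *Shank3Δ11(-/-)* mice. Its log2 fold change was 0.19 ± 0.15 with 7 mice (edgeR p = 0.244, exact permutation p = 0.314) and 0.23 ± 0.13 with 9 (edgeR p = 0.111, exact permutation p = 0.135). Without WT1 the 9 mice gave 0.33, with an unadjusted p of 0.0352 in edgeR. Without KO5 or without WT4 the 7 mice gave 0.09. *Anxa11* (chr14:25842156-25886804), whose long N-terminal tail tethers RNA granules to lysosomes, was measured at 72.1, 75.9, 56.8, 52.0 and 55.2 CPM in KO1 to KO5 and at 64.1, 61.5, 66.5 and 66.4 CPM in WT1 to WT4. The *Shank3Δ11(-/-)* mice lay on both sides of the narrow *Shank3(+/+)* range. The log2 fold change was -0.08 ± 0.11 with 7 mice, with an interval from -0.34 to 0.17 (edgeR p = 0.484, exact permutation p = 0.400).

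Of the ferlins, *Dysf* (chr6:84008590-84211060) was measured at 139, 161, 99.7, 93.7 and 84.8 CPM in KO1 to KO5 and at 105, 118, 96.8 and 88.4 CPM in WT1 to WT4. KO1 and KO2 stood above every *Shank3(+/+)* mouse, KO5 stood below every one of them, and KO3 and KO4 lay within their range. The SD of its log2 CPM over the 9 mice was 0.31, larger than that of 90.8% of the genes with a mean of at least 10 CPM. The log2 fold change was 0.07 ± 0.16 with 7 mice, with an interval from -0.29 to 0.43 (edgeR p = 0.678, exact permutation p = 0.829), and 0.18 ± 0.18 with 9 (edgeR p = 0.333, exact permutation p = 0.516). Without KO1, the comparison of 7 mice gave -0.15, with an unadjusted p of 0.303 in edgeR, so the sign of the *Dysf* difference among 7 mice rested on KO1. With 9 mice it was 0.11 without KO1, and it stayed above 0, from 0.03 without KO2 to 0.28 without KO5, with any mouse left out. A replicate block in edgeR gave *Dysf* 0.22 with 7 mice (unadjusted p of 0.102) and 0.25 with 9 (unadjusted p of 0.0356).

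*Myof* (chr19:37899036-38043577) was measured at 35.7, 30.4, 25.1, 35.7 and 27.5 CPM in KO1 to KO5 and at 38.1, 26.9, 29.4 and 25.9 CPM in WT1 to WT4. The highest mouse was WT1 and the lowest KO3, and the groups covered each other. Its log2 fold change was -0.04 ± 0.16 with 7 mice, with an interval from -0.40 to 0.32 (edgeR p = 0.822, exact permutation p = 0.771), and 0.04 ± 0.14 with 9 (edgeR p = 0.782, exact permutation p = 0.802). Over the 10 members, the intervals with 7 mice reached from 0.76-fold to 1.44-fold, and with 9 mice from 0.81-fold (*Anxa11*) to 1.60-fold (*Anxa1*). Larger changes of a member lie outside its interval. In none of the 10 were the groups free of overlap with 7 or with 9 mice, where 2.83% and 0.681% of all genes had groups that did not overlap.

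**Figure D2:**
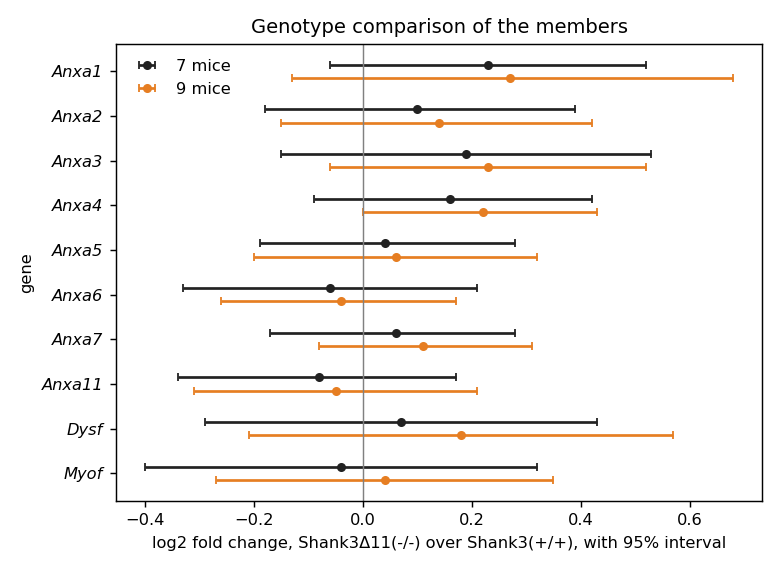
Log2 fold change of each gene, *Shank3Δ11(-/-)* over *Shank3(+/+)*, with 95% intervals from edgeR for 7 mice (black) and 9 mice (orange). Each interval contains or touches 0, and the *Anxa4* interval of 9 mice ends at 0 on its lower side.

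The proteins that work with annexins and ferlins at a wound were tested in the same fit. Of 27 partner genes, 15 had a fold change above and 12 below 0 in the 7 mice, the median on the log2 scale was 0.01, and 0 had p below 0.05 in edgeR. *Trim72*, which encodes MG53, the vesicle-recruiting repair protein of muscle, was measured at 207 to 292 CPM in the *Shank3Δ11(-/-)* mice and 225 to 394 CPM in the *Shank3(+/+)* mice, with a log2 fold change of -0.29 ± 0.22 (edgeR p = 0.209, exact permutation p = 0.371). WT3 and WT4 alone stood above all *Shank3Δ11(-/-)* mice for this gene. *S100a10*, the annexin A2 partner, gave 0.06 ± 0.12 (exact permutation p = 0.657), and *S100a11*, the annexin A1 partner, 0.08 ± 0.15 (exact permutation p = 0.771). *Ano5*, whose loss causes a limb-girdle muscular dystrophy, gave 0.13 ± 0.30 (exact permutation p = 0.800), and *Chmp4b*, an ESCRT-III subunit, -0.08 ± 0.12 (exact permutation p = 0.657).

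*Ano6*, a calcium-activated lipid scramblase, and *Ehd2*, an ATPase of caveolar necks, were the 2 of 27 partners whose groups did not overlap with 7 mice, each higher in the 3 *Shank3Δ11(-/-)* mice. Of all genes tested, 2.83% had such groups. *Ano6* stood at 86.2 to 89.8 CPM against 73.3 to 84.5 CPM, a log2 fold change of 0.17 ± 0.10 (edgeR p = 0.107, exact permutation p = 0.0571). *Ehd2* stood at 292 to 307 CPM against 273 to 288 CPM, a log2 fold change of 0.11 ± 0.09 (edgeR p = 0.276, exact permutation p = 0.0571). With all 9 mice both genes overlapped. These 2 were picked after their values were seen.

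Of 8 other annexin and ferlin genes, 5 passed the filter and 0 had p below 0.05 in edgeR with 7 mice. *Anxa10* had no count in any mouse, which allows at most 0.113 CPM in the shallowest library (3 counts, counting error only), and *Anxa13* and *Fer1l4* had 42 and 5 counts over the 9 mice. *Anxa8*, an epithelial annexin, was the most variable of them, at 1.23 to 12.6 CPM. Its highest mouse was again KO4. The otoferlin gene *Otof*, needed for vesicle release in hair cells, stayed at 0.788 to 1.56 CPM.

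The members also varied between single mice. KO4 was the highest mouse for 6 of the 8 annexins (*Anxa1*, *Anxa2*, *Anxa3*, *Anxa4*, *Anxa5* and *Anxa7*) and the lowest for *Anxa11*. In log2 CPM, KO4 exceeded the mean of 9 mice by 0.66 for *Anxa1*, 0.38 for *Anxa2* and 0.33 for *Anxa5*. KO2 was the highest mouse for *Dysf* and *Anxa11* and the lowest for *Anxa1* and *Anxa5*, with deviations of 0.59 for *Dysf* and -0.47 for *Anxa1*. Both are mice that the study left out, giving too few total reads as its reason. In the deposited counts KO2 had 28211941 and KO5, which was kept, 26444372. These are reads counted on genes and not total reads. KO4 also stood apart as a library, with the highest total, 40471957 counts, the highest mitochondrial share of counts, 7.88% against 3.81 to 6.54% in the other 8 mice, and the lowest TMM factor, 0.941. KO2 had the highest TMM factor, 1.04, and a mitochondrial share of 3.98%. The part of these library values in the member levels, and in the correlations that KO4 and KO2 weigh on, was not tested.

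**Figure D3:**
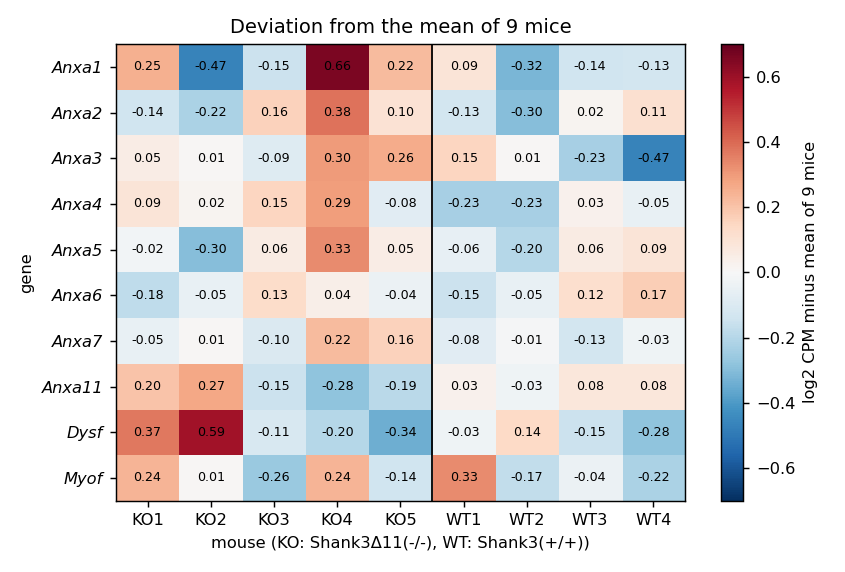
Log2 CPM of each gene in each mouse minus the mean of 9 mice, from blue (below) to red (above), with *Shank3Δ11(-/-)* mice to the left of the line and *Shank3(+/+)* mice to the right. The column of KO4 is above the mean for 8 members and below it for *Anxa11* and *Dysf*, and KO1 and KO2 hold the highest *Dysf* values at 0.37 and 0.59.

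Markers of other tissues also differed between single mice. The summed level of 7 genes listed for fibroblasts and connective tissue was 22323 CPM in KO4 and 11343 to 18263 CPM in the other 8 mice. The summed level of 6 cartilage and bone genes was 271 CPM in KO4 and 37.7 to 128 CPM in the others. In KO5 6 adipocyte genes summed to 1185 CPM, against 230.2 to 459.6 CPM elsewhere, and in KO1 6 erythroid genes summed to 5774 CPM, against 1223 to 2192 CPM. Myofibre genes were high in every library, with a sum of 50909 to 57923 CPM, and no marker of these lists was at 0 in all mice. With 7 mice, 4 of 5 adipocyte genes and 3 of 6 Schwann cell genes tested were higher in *Shank3Δ11(-/-)* at p below 0.05 in edgeR. So was 1 of 7 genes of the fibroblast list. With 9 mice these counts were 2, 1 and 1. Schwann cell genes summed to 460.3 CPM in KO5 and to 133 to 278 CPM in the other mice. All 6 myoblast and satellite cell genes had fold changes below 0 with 7 mice, of which *Myod1*, a myogenic transcription factor, had p below 0.05, at 38.6 to 52.1 CPM against 54.4 to 68.1 CPM (log2 fold change -0.41 ± 0.13, exact permutation p = 0.0286). With 9 mice *Myod1* gave -0.25 (exact permutation p = 0.278) and the groups overlapped. Of 5 neutrophil genes tested, *Ngp* was lower at p below 0.05 with 7 mice and with 9. The part of these cells in the member values was not tested.

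The clearest relation among members was that of *Anxa2* and *Anxa5*. Over the 9 mice their log2 CPM had a Pearson r of 0.93 (exact permutation p = 2.18e-04, adjusted over 45 pairs 0.00980) and a Spearman rho of 0.88 (exact permutation p = 0.00308, adjusted 0.138). The next 2 values carry no test, because the mice were left out with their values known. Without the 2 mice farthest from the *Anxa2* median, KO4 and WT2, r was 0.84, and without KO4 alone it was 0.87. It was 0.94 in deviations from the genotype means and 0.93 in deviations from the means of the mice with high and with low *Xist* RNA, a division described after the other relations.

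*Dysf* ran against both. Its r was -0.71 with *Anxa2* (exact permutation p = 0.0300) and -0.74 with *Anxa5* (exact permutation p = 0.0227), with an adjusted p of 0.220 for each. Without KO4 the values were -0.77 and -0.82. In deviations from the genotype means they were -0.86 and -0.81, and in deviations from the *Xist* means -0.62 and -0.74, with exact permutation p = 0.214 and 0.0990. Leaving out KO2 gave -0.68 for *Anxa2*, with exact permutation p = 0.0646 over 8 mice. It moved the value for *Anxa5* to -0.54, with exact permutation p = 0.173. KO2 was picked with its values known, so these p-values are descriptive only. *Dysf* ran with *Anxa11*, with r of 0.73 (exact permutation p = 0.0249, adjusted 0.220), and 0.57 without KO2 and KO4.

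Of the 45 pairs of members, 8 had p below 0.05 for r, 4 positive and 4 negative, 5 had p below 0.05 for rho, and only the r of *Anxa2* with *Anxa5* kept an adjusted p below 0.05. Beside these 8 of 45, 9.11% of the pairs of all genes tested had an r as large in size as the weakest of them, 0.68. The members that form most of the 8 pairs reached this size with more genes than that, *Anxa2* with 18.0% of all genes tested, *Anxa11* with 16.4%, *Anxa5* with 14.8% and *Dysf* with 11.5%. The other pairs were *Anxa1* with *Anxa5* (r of 0.80), *Anxa2* with *Anxa4* (0.70), *Anxa2* with *Anxa11* (-0.70) and *Anxa5* with *Anxa11* (-0.68). Without KO4, 4 of the 8 kept p below 0.05, and none of these 4 did. KO4 was left out with its values known, so this count is a description. All values come from the same 9 libraries and share their normalization and their tissue mixture.

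**Figure D4:**
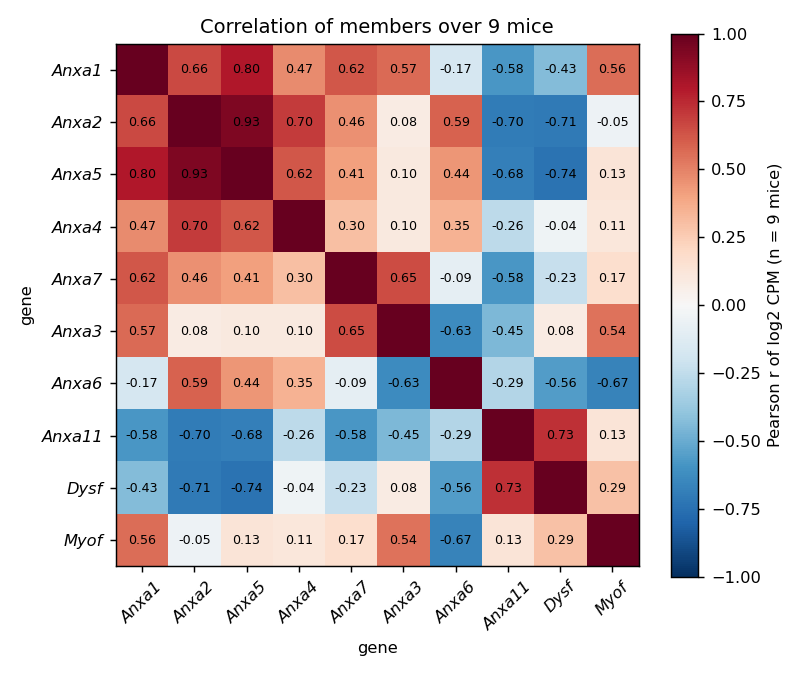
Pearson r of log2 CPM over 9 mice for each pair of members, from blue (-1) to red (1). *Anxa1*, *Anxa2* and *Anxa5* form a red block with r from 0.66 to 0.93, and their cells with *Anxa11* and *Dysf* are blue, from -0.43 to -0.74.

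**Figure D5:**
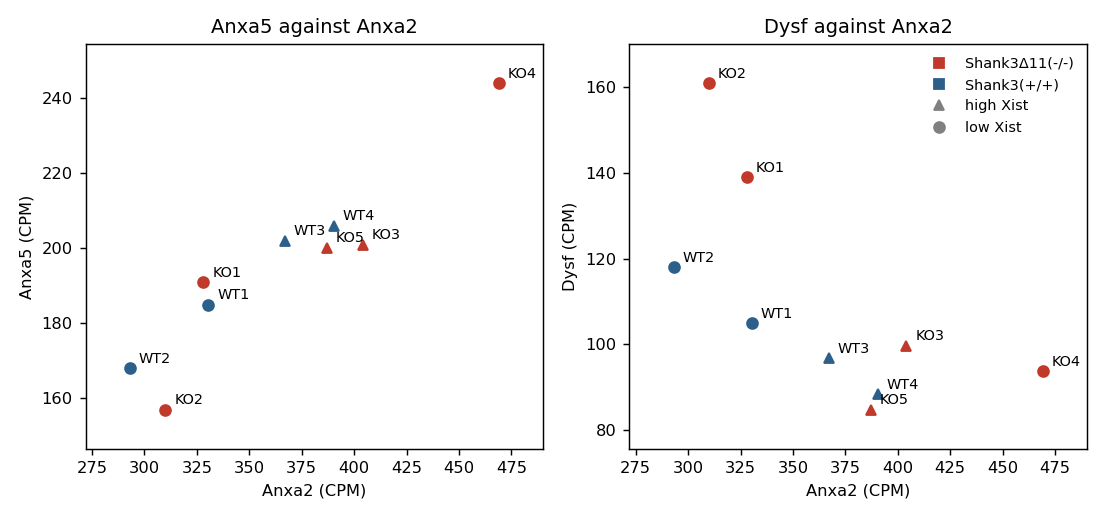
CPM of *Anxa5* (left) and *Dysf* (right) against *Anxa2*, with 1 labelled point per mouse, red for *Shank3Δ11(-/-)*, blue for *Shank3(+/+)*, triangles for high and circles for low *Xist*. KO4 lies at 469 CPM of *Anxa2* and 244 CPM of *Anxa5*, apart from the other 8 mice, and the highest *Dysf* values, 161 and 139 CPM, belong to KO2 and KO1.

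Known binding partners were set beside the members in 10 relations. *Anxa2* and *S100a10* had r of 0.79 (exact permutation p = 0.0117, adjusted over the 10 relations 0.0955), rho of 0.73 and r of 0.59 without KO4. *Anxa1* and *S100a11* had r of 0.72 (exact permutation p = 0.0287, adjusted 0.0955) and 0.53 without KO4. For *S100a10* the mice stood at 147, 118, 173, 239.6 and 179 CPM in KO1 to KO5 and at 149, 164, 141 and 179.6 CPM in WT1 to WT4, with KO4 highest and KO2 lowest, as for *Anxa5*. *Anxa11* and *Pdcd6*, which encodes the calcium-binding protein ALG-2, had r of -0.69 (exact permutation p = 0.0278, adjusted 0.0955) and -0.14 without KO2 and KO4. *Dysf* gave no such relation with *Trim72* (-0.29), *Cav3* (0.33), *Ahnak* (0.50) or *Capn3* (0.40), whose proteins it is known to bind.

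Against the summed marker levels, 17 of 110 relations of a member with a list had p below 0.05, and 0 had an adjusted p below 0.05. The members reached an r of 0.68 in size with 3.79% (*Myof*) to 18.4% (*Anxa6*) of all genes tested, so the 17 are no more than a description. *Anxa5* had r of 0.89 with the fibroblast and connective tissue sum (exact permutation p = 0.00395, adjusted 0.135), and 0.79 without KO4. *Anxa2* had 0.84 with the same sum (exact permutation p = 0.00490, adjusted 0.135), and 0.71 without KO4. This sum stands mainly for *Col1a1* and *Col3a1*, chains of collagens I and III, which made up 89.4 to 93.8% of it in each mouse. With the sum of the other 5 genes *Anxa5* had r of 0.74 and *Anxa2* 0.63, and without KO4 0.45 and 0.23. One of these 5, *Tcf4*, at a mean of 349 of their 1259 CPM, is not a specific marker of fibroblasts. Singly, r with *Anxa5* and *Anxa2* was 0.97 and 0.89 for *Lum*, 0.76 and 0.79 for *Ly6a* and 0.69 and 0.59 for *Dcn*. It was 0.22 and 0.16 for *Tcf4* and -0.10 and -0.21 for *Pdgfra*, a receptor of fibroblasts. Without KO4 *Lum* had 0.97 and 0.79, and *Tcf4* had -0.36 and -0.44. *Anxa1* had 0.86 with the macrophage sum (exact permutation p = 0.00244, adjusted 0.135) and -0.86 with the myoblast and satellite cell sum (exact permutation p = 0.00276, adjusted 0.135). *Anxa2* and *Anxa5* also ran against the myoblast sum, with r of -0.79 (exact permutation p = 0.0123, adjusted 0.168) and -0.83 (exact permutation p = 0.00688, adjusted 0.151). Without KO4 these were -0.63 and -0.69, with exact permutation p = 0.0964 and 0.0606, descriptive because KO4 was picked with its values known. With the endothelium sum *Anxa5* had r of 0.82 (exact permutation p = 0.00997, adjusted 0.168) and *Anxa2* 0.73 (exact permutation p = 0.0245, adjusted 0.264). Without KO4 these were 0.68 and 0.54. *Anxa11* had -0.79 with the same sum (exact permutation p = 0.0108, adjusted 0.168). *Dysf* had -0.73 with the epidermis sum (exact permutation p = 0.0232, adjusted 0.264). Whether these sums carry the relation of *Anxa2* with *Anxa5* was not tested.

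*Xist*, the RNA that silences an X chromosome, divided the mice across both genotypes. WT3, WT4, KO3 and KO5 had 618 to 925 CPM of it, the other 5 mice 0.136 to 3.23 CPM, and the labels give no sex. The Y-linked *Eif2s3y* followed the reverse division, with 51.5 to 83.9 CPM in the 5 mice of low *Xist* and 0 to 0.0341 CPM in the 4 of high *Xist*, and *Ddx3y*, *Uty* and *Kdm5d* did likewise, so the division is that of male and female transcript patterns. Both genotypes hold mice of both kinds. The labels give no litter or day, which cannot be told apart from it. With the 7 mice of the genotype comparison, 15.9% of all genes had p below 0.05 in edgeR between high and low *Xist*, with genotype also in the model, and 15.8% had groups that did not overlap.

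Among the members, 4 of 10 had p below 0.05 in that comparison of 7 mice. *Dysf* stood at 84.8 to 99.7 CPM with high and 105 to 139 CPM with low *Xist*, a log2 difference of -0.39 ± 0.11 (edgeR p = 0.00525, adjusted 0.134, exact permutation p = 0.0286). *Anxa2* stood at 367 to 404 against 293 to 330.4 CPM, a log2 difference of 0.29 ± 0.10 (edgeR p = 0.0155, adjusted 0.199, exact permutation p = 0.0286). *Anxa5* stood at 200.1 to 206 against 168 to 191 CPM, a log2 difference of 0.16 ± 0.09 (edgeR p = 0.110, adjusted 0.436, exact permutation p = 0.0286). These 3 genes and *Anxa6* did not overlap between the groups, 4 of 10 members, and 0.0286 is the smallest exact p that 4 against 3 mice allow. *Anxa6*, at 420.4 to 485 against 382 to 417 CPM, was higher with high *Xist* by 0.25 ± 0.10 (edgeR p = 0.0352, adjusted 0.274, exact permutation p = 0.0571) and *Myof* lower, with a log2 difference of -0.30 ± 0.13 (edgeR p = 0.0426, adjusted 0.297, exact permutation p = 0.114).

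With all 9 mice, where 8.96% of all genes had p below 0.05 and 2.36% had groups that did not overlap, 2 of 10 members had p below 0.05, both ferlins, and 0 of 10 were free of overlap. *Dysf* had a log2 difference of -0.40 ± 0.15 (edgeR p = 0.0173, adjusted 0.504, exact permutation p = 0.0556) and *Myof* one of -0.31 ± 0.12 (edgeR p = 0.0233, adjusted 0.521, exact permutation p = 0.0476). *Anxa2* gave 0.18 ± 0.13 (edgeR p = 0.172, exact permutation p = 0.222), with its highest level in KO4, a mouse with low *Xist*. Without KO4 the *Anxa2* difference was 0.30 and that of *Dysf* -0.48, given with no test because KO4 was left out with its values known. This division was compared after the values had been seen.

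The genes whose levels over the 9 mice were most like those of the members were sought among the 10872 genes with a mean of at least 10 CPM. *Anxa2* was followed most closely by *Ckap4* and *Gm2a* (r of 0.97 each), then *Pofut2*, *Pycr1* and *Mfap4* (0.96 each). *Dysf* was followed by *Ppp4r1* and *Slc4a2* (0.97 each), *Rassf2* (0.95), *Zfp346* (0.93) and *Camsap1* (0.92). The mean of the 8 annexins was followed by *Cpz* (0.98), *Efemp1* (0.94), *Gusb* (0.93), *Sparc* (0.92) and *Irf2bp2* (0.92). With so many genes and 9 mice, r of this size describes these libraries and carries no test.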

How the data were processed

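RNA-seq counts of the gastrocnemius of 9 mice were analysed. The counts, as deposited by the authors, are unnormalised whole numbers of reads for each Ensembl ID. Per the labels, reads were aligned with HISAT2 and counted with featureCounts on mm10 (GRCm38). Whether counting used the strand, or reads of more than 1 match, was not given in the sources used, so reads of overlapping genes cannot be told apart from a member's, the widest single overlap being an antisense gene over 4.23% of the exon length of *Dysf*. Totals ranged from 26444372 to 40471957 counts, and member counts from 724 to 17846 per mouse. Symbols and positions came from GENCODE M21, for 55144 of 55471 IDs. Libraries of the same genotype were compared pairwise, and none of these pairs agreed within counting noise.

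Genes were filtered with filterByExpr (minimum count 10, minimum total 15), leaving 21809 genes for 7 mice and 21735 for 9. The model was edgeR 4.0.16 (R 4.3.3; TMM, robust quasi-likelihood test), which gave fold changes, SE, intervals and p-values, adjusted by Benjamini-Hochberg over every gene in the fit. Calls needed p below 0.05 and FDR below 25%. RPKM divided CPM by the summed exon length. The exact permutation tests were 2-sided, on mean log2 CPM (prior count 2). The smallest p they allow is 0.0286 for 3 against 4 mice and 0.00794 for 5 against 4. Correlations used log2 CPM with TMM factors of 9 mice and 2-sided exact permutation p over all orders of the mice. Alternatives were DESeq2 1.42.0, limma-voom (limma 3.58.1), other normalizations, no filter, a replicate block, *Xist* (above 100 CPM) as covariate, and each mouse left out. Scripts were tested on simulated data. The rule for named genes took the 10 members, 9 partners, marker genes with p below 0.05 or set beside a result, *Shank3*, *Xist*, and the 5 genes most alike in pattern to *Anxa2*, *Dysf* and the annexin mean. *Ano6*, *Ehd2*, *Anxa8*, *Anxa10*, *Anxa13*, *Fer1l4*, *Otof* and the Y-linked genes fall outside it and were chosen after their values were seen. The members and lists were chosen with earlier results of these data known.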

Additional observations from a re-analysis of the deposited data

How the results depend on the processing

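The main comparison of 7 mice gave 453 genes with p below 0.05, 0 called genes and 0 of 10 members with p below 0.05. Without a filter on low counts there were 972 genes with p below 0.05 and 1 called. DESeq2 called 6 genes with 7 mice and 7 with 9 mice, none of them a member. With 9 mice 1 member, *Anxa4*, had an unadjusted p below 0.05 in DESeq2, of 0.0490. With *Xist* as covariate 1 gene was called with 7 mice. Leaving out each mouse in turn gave 224 (without KO5) to 968 (without KO1) genes with p below 0.05 and 0 to 15 called, the most without KO1, with 9 mice 300 (without KO5) to 745 (without KO2) genes and 0 to 7 called, and 0 to 1 members, *Anxa1* without KO3, and with 9 mice *Anxa1* without KO2, *Anxa3* without WT1, and *Anxa4* without KO5 or WT3.

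The replicate numbers of the labels were tried as pairs. Same-numbered mice deviated together with correlations of 0.37, 0.05, 0.36 and 0.10, and only numbers 1 and 3 matched their own partner best, so the numbers were not taken as pairing. A replicate block gave 844 genes with p below 0.05 and 9 called with 7 mice, where *Dysf* gave 0.22 (unadjusted p of 0.102), *Anxa4* 0.22 (0.0910), *Myof* -0.16, *Anxa1* 0.07, *Anxa2* 0.06, *Anxa7* 0.03, *Anxa3* 0.01, *Anxa5* 0.01, *Anxa6* -0.01 and *Anxa11* -0.03. With 9 mice the block gave 452 of 21735 genes with p below 0.05 and 2 called. The 452 held 2 members, *Anxa4* at 0.26 (unadjusted p of 0.0170) and *Dysf* at 0.25 (unadjusted p of 0.0356).

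The sign of *Myof* turned to 0.04 with 9 mice in edgeR and DESeq2, 0.05 in limma-voom, 0.08 with the block and 0.00 with *Xist* as covariate. With each mouse left out of the 7, log2 fold changes ranged from 0.16 to 0.35 for *Anxa1*, 0.03 to 0.19 for *Anxa2*, 0.09 to 0.29 for *Anxa3*, 0.11 to 0.23 for *Anxa4*, -0.20 to 0.10 for *Myof*, -0.15 to 0.21 for *Dysf*, -0.01 to 0.09 for *Anxa5*, -0.14 to 0.01 for *Anxa6*, -0.03 to 0.11 for *Anxa7* and -0.21 to -0.02 for *Anxa11*. Left out of the 9, they ranged from 0.10 to 0.39 for *Anxa1*, 0.05 to 0.20 for *Anxa2*, 0.13 to 0.33 for *Anxa3*, 0.16 to 0.27 for *Anxa4*, 0.03 to 0.28 for *Dysf*, -0.02 to 0.17 for *Myof* (0.03 without WT3), -0.03 to 0.14 for *Anxa5*, -0.10 to 0.01 for *Anxa6* and -0.13 to 0.00 for *Anxa11*. *Anxa7* gave 0.06 without KO4 and 0.15 without KO3. The cause of these shifts was not tested. Of the 45 pairs, 8 had p below 0.05, 4 in deviations from the genotype means, and 5 to 9 with a mouse left out, the fewest without KO2. The 9-mouse repeats of leaving out a mouse, of DESeq2 and of limma-voom, the *Xist* groups and the marker and partner relations were added after seeing the data. With 3 and 4 mice the members' intervals span 0.76-fold to 1.44-fold, and with 5 and 4 mice 0.81-fold to 1.60-fold, which limits what could be seen.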
